A study of Arabidopsis thaliana with 4 samples.

Results

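Seedlings of *Arabidopsis thaliana* with a single mutation, *upf1-5* or *upf3-1*, were set directly against each other, with 1 RNA sequencing library for each genotype. The rows of the deposited table that pair both libraries were taken, the expression of each gene was recovered for both, and annotated genes were kept where either library had at least 1 FPKM. FPKM is a fragment count scaled to the length of the transcript and to the mapped fragments of the library. This gave 19014 genes of the 20174 annotated genes that have a row for this pair, and of the 21284 annotated genes in the whole table. A gene is called higher or lower in *upf3-1* when its FPKM differs by 2-fold or more, and log2 ratios are *upf3-1* over *upf1-5*. With 1 library per genotype there is no replicate error for any value below, and no difference was tested.

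Nonsense-mediated mRNA decay (NMD) removes transcripts on which a ribosome stops too early, and it also lowers some normal transcripts that have an intron after the stop codon, a long 3′ UTR or an upstream reading frame. UPF1 is the RNA helicase at the centre of the pathway, and UPF3 joins the exon junction complex, which marks spliced junctions, to UPF2 and UPF1. In Arabidopsis, strong loss of NMD is known to bring dwarfism and an autoimmune state with raised salicylic acid signalling, and weaker alleles flower late.

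All libraries came from pools of 8-day-old Col-0 seedlings, grown on MS medium at 23°C in 16 h of light and 8 h of dark and harvested at ZT16, which is 16 h after lights on. The genotypes were WT, *upf1-5*, *upf3-1* and the *upf1-5 upf3-1* double mutant, with 1 library each. Both alleles are T-DNA insertions, and the double mutant came from a cross of the single mutants. On the library kit the sources differ: an mRNA kit stands in the labels, and a total RNA kit in the methods. Whole seedlings were used, so fewer cells of a tissue and less RNA per cell of that tissue cannot be told apart in any value below.

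The libraries matched their labels in the mutated genes. *UPF1* (*AT5G47010*, chr5:19071824-19079453 in TAIR10.1) had 3.18 FPKM in *upf1-5* and 30.6 in *upf3-1*, beside 23.9 in WT and 8.27 in the double mutant. *UPF3* (*AT1G33980*, chr1:12351566-12355173) had 33.7 FPKM in *upf1-5* and 6.36 in *upf3-1*, beside 20.8 in WT and 7.10 in the double mutant. Each gene was therefore lowest in the single mutant that carries its insertion, and fragments from both mutated genes remained. The reference genes *PP2AA3*, a phosphatase 2A subunit, and *SAND*, a vesicle trafficking gene, had 38.1 and 21.1 FPKM in *upf1-5* and 42.2 and 19.7 in *upf3-1*.

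Between both single mutants, 1530 genes were higher in *upf3-1* (8.05% of those tested) and 955 were lower (5.02%), 13.1% in either direction. Most genes differed little, since 69.5% lay within 1.5-fold. The median log2 ratio over all genes was -0.04. A 4-fold difference was reached by 360 genes higher and 204 lower in *upf3-1*, and a 10-fold difference by 61 and 59. The genes higher in *upf3-1* had medians of 1.99 FPKM in *upf1-5* and 6.04 in *upf3-1*, and those lower had medians of 6.55 in *upf1-5* and 2.28 in *upf3-1*. On the side higher in *upf3-1*, 680 genes never reached 5 FPKM, and 397 did not on the other side.

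**Figure D1:**
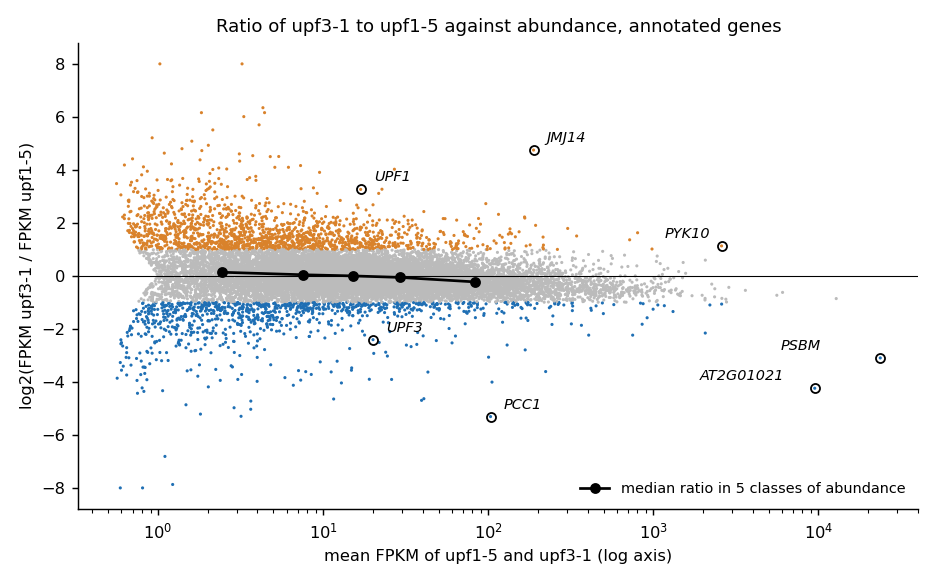
Log2 ratio of FPKM, *upf3-1* over *upf1-5*, against the mean FPKM of both libraries on a log axis for 19014 annotated genes, orange where 2-fold higher in *upf3-1*, blue where 2-fold lower, grey otherwise; ratios beyond 8 on either side, which 4 genes have, are drawn at 8. The black points are the medians of 5 equal classes of abundance, which go from 0.14 in the lowest class to -0.23 in the highest.

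The ratio moved with abundance, as the plot of ratio against mean FPKM shows. In 5 classes of equal size, the median log2 ratio was 0.14, 0.04, 0.00, -0.06 and -0.23 from the lowest to the highest class. Genes higher in *upf3-1* made up 23.1% of the lowest class and 2.13% of the highest, and genes lower made up 13.6% and 3.21%. The summed FPKM of all tested genes was 1.25 times larger in *upf1-5* than in *upf3-1*, and 1.18 times larger without organelle genes and *AT2G01021*, an uncharacterized gene described below. The 100 genes of highest FPKM summed to 236628 FPKM in *upf1-5* and 128312 in *upf3-1*. A large part of this gap came from the chloroplast gene *PSBM* (42473 and 4968 FPKM) and from *AT2G01021* (18060 and 956). Among 1607 loci with a pair sum under 2 FPKM the most frequent ratios were 0.61, at 26 loci, and 1.22, at 23. Transcript length moved with the ratio as well, from a median of -0.16 for the shortest of 5 equal classes of mRNA models to 0.06 for the longest. The highest class of abundance without cytosolic ribosomal protein genes had a median of -0.20, with 2467 of its 3623 genes below 0, and the shortest class of mRNA had 11.1% of its genes higher and 9.61% lower in *upf3-1*. Below, lists with most of their members in either class are named as such.

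Among genes with 5 FPKM or more in the higher library, the 10 largest ratios in favour of *upf3-1* all belonged, except for *JMJ14*, to genes with under 0.5 FPKM in *upf1-5*. The cysteine proteinase gene *AT1G29090* had 0.105 FPKM in *upf1-5* and 8.53 in *upf3-1*, beside 0.441 in WT and 0.949 in the double mutant. *PDLP4*, a cysteine-rich plasmodesmata protein, had 0.101 in *upf1-5* and 6.51 in *upf3-1*, beside 0.123 in WT and 2.13 in the double mutant. Only *upf3-1* among the 4 libraries was above 3 FPKM for both. *LEA18*, a late embryogenesis abundant protein of drying seeds and stressed tissue, had 0.404 in *upf1-5*, 9.16 in *upf3-1*, 2.54 in WT and 4.57 in the double mutant. *AT5G24510*, a gene for an acidic ribosomal P1 protein, had 0.454 and 10.3 FPKM in *upf1-5* and *upf3-1*, and the noncoding *AT3G25795* had 0.122 and 8.71. The uncharacterized *AT5G20045* and *AT4G20470* had 0.309 and 7.18, and 0.245 and 5.96. On the same strand as *AT4G20470*, the annotation places the overlapping gene *AT4G20460*, itself at 6.08 and 9.13 FPKM. The dynamin pseudogene *DRP4D* had 0.154 FPKM in *upf1-5* and 8.03 in *upf3-1*, and the annotation places a noncoding gene, itself at 2.18 and 5.03 FPKM, on its other strand.

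A pair of these genes stood out by their values in the other libraries. *BLT*, which shapes trichome branching, was listed near 0 in *upf1-5* (0.00160 FPKM), against 6.45 in *upf3-1*, 8.34 in WT and 1.76 in the double mutant. A value so near to 0 can be a failed estimate, and no fold is drawn from it. *JMJ14* (*AT4G20400*, chr4:11008558-11013860), a histone H3 lysine demethylase with a role in repressing flowering, had 13.5 FPKM in *upf1-5* and 363 in *upf3-1*, a 26.9-fold difference. Its values were 14.2 in WT and 12.4 in the double mutant, so *upf3-1* alone among the 4 libraries was high. The neighbouring gene that overlaps its end on the other strand had 41.9 FPKM in *upf1-5* and 47.7 in *upf3-1*.

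The 10 largest ratios in favour of *upf1-5* held several defence genes. *PCC1* (*AT3G22231*, chr3:7845823-7846833), a small protein named for its control by pathogens and the clock, had 201 FPKM in *upf1-5* and 5.08 in *upf3-1*, beside 3.72 in WT and 61.1 in the double mutant. The chitinase-like *AT2G43620* had 78.3 and 3.15 FPKM in *upf1-5* and *upf3-1*, with 9.11 in WT and 77.0 in the double mutant. The lipid transfer protein *AT4G12490* had 76.0 and 2.93, with 0.732 in WT and 163 in the double mutant. All 3 were high in both libraries that carry *upf1-5* and low in WT and *upf3-1*. The berberine bridge enzyme genes *AT1G26380* and *AT1G26390*, next to each other on chromosome 1 and of a family that oxidises defence indoles and sugars, were also higher in these 2 libraries than in the other 2, with 7.02 and 5.59 FPKM in *upf1-5*, 0.266 and 0.178 in *upf3-1*, 0.768 and 0.951 in WT, and 21.99 and 40.01 in the double mutant. As near copies, these 2 may share fragments.

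The rest of this group was mixed. *AT5G44575*, uncharacterized, had 22.3 FPKM in *upf1-5* and 0.889 in *upf3-1*, beside 9.15 in WT and 20.7 in the double mutant. The defensin-like *AT3G59930* had 12.5 and 0.714, with 22.6 in WT and 3.55 in the double mutant. The noncoding *AT3G45638* had 7.06 and 0.216, with 5.30 in WT and 4.37 in the double mutant. For these 3 genes the *upf3-1* library was the lowest of the 4, and *ASN1*, the remaining gene, is described with the starvation genes below. *AT2G01021*, a short gene near the start of chromosome 2 (chr2:6571-6672), had 18060 FPKM in *upf1-5* and 956 in *upf3-1*. It had 3116 in the double mutant and has no value for WT in the table. Whether its fragments are ribosomal RNA was not tested.

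By level, the leading genes higher in *upf3-1* were *PYK10*, the main beta-glucosidase of root ER bodies, with 1625 FPKM in *upf1-5* and 3558 in *upf3-1*, and the noncoding *AT1G10682*, with 650 and 1314. *RCI2B*, a small hydrophobic membrane protein of salt and cold responses, had 393 and 1214, the glycine-rich *DOT1* 403 and 1035, and the lipid transfer protein *AT4G12520* 179 and 508. For all 5 genes *upf3-1* was the highest of the 4 libraries. The leading genes lower in *upf3-1* were the chloroplast gene *PSBM*, with 42473 FPKM in *upf1-5*, 4968 in *upf3-1*, 28747 in WT and 9134 in the double mutant, then *AT2G01021* and the nuclear genes *RBCS1B*, *GRP3S* and *MT3*. *RBCS1B*, a small subunit of Rubisco, had 3510 and 1679 FPKM, *GRP3S*, a glycine-rich protein, 3374 and 756, and the metallothionein *MT3* 3002 and 1403. WT exceeded *upf1-5* for these 3 nuclear genes, with 4880, 7255 and 4226 FPKM.

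**Figure D2:**
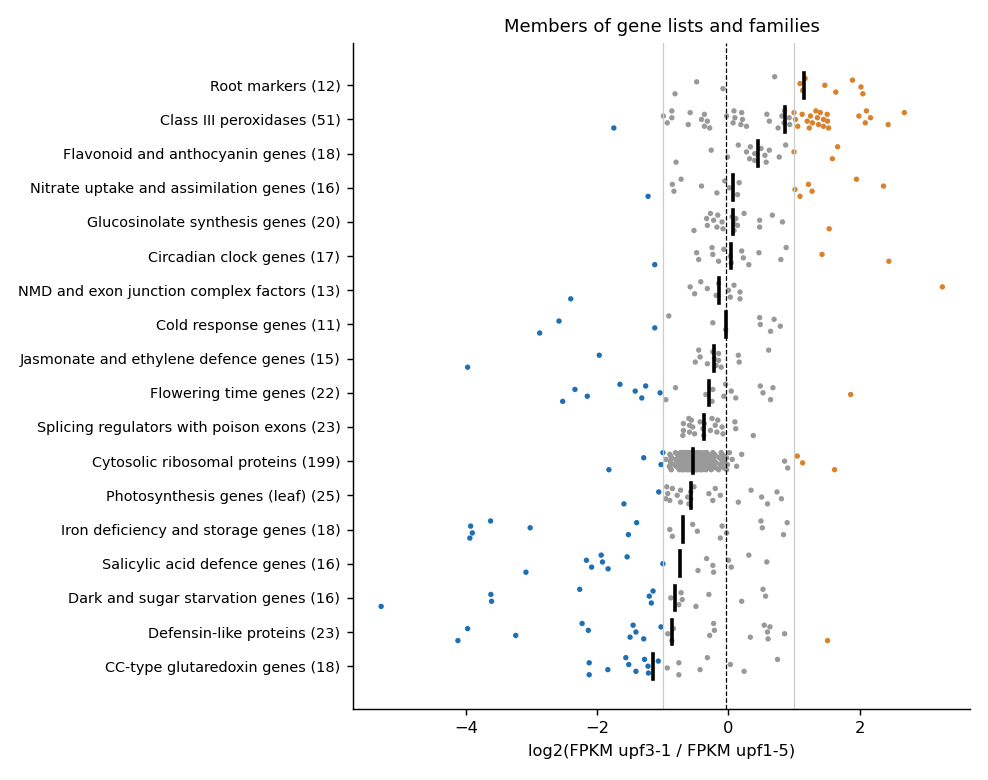
Log2 ratios of FPKM, *upf3-1* over *upf1-5*, of the members of 18 gene lists and families, with the number of measured members in brackets. Each point is a gene, orange or blue where 2-fold higher or lower in *upf3-1*, black bars are the list medians, from 1.15 for root markers to -1.15 for CC-type glutaredoxins, and the dashed line is the median of all tested genes, -0.04.

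The surveillance machinery itself, apart from the mutated genes, was at like levels in both mutants. Of 13 genes for NMD and exon junction complex factors, 1 was higher (*UPF1*) and 1 lower (*UPF3*), with a list median of -0.15 against -0.04 over all genes. The exon junction complex genes *Y14* and *MAGO* had 82.8 and 242 FPKM in *upf1-5* and 55.2 and 181 in *upf3-1*, and *PYM*, which takes the complex apart, had 21.8 and 15.2. A gene known as an NMD target in plants, named here outside the rule for named genes, had the same value in both single mutants, above WT. This was the release factor gene *ERF1-1*, with 27.7 FPKM in WT, 77.3 in each single mutant and 82.1 in the double mutant.

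Gene model features that NMD can recognise were not more common among the genes that differed. Of 18522 protein-coding genes tested, 1.74% have an exon junction over 50 nt downstream of the stop, against 1.16% of the genes higher in *upf3-1* and 1.22% of those lower. A 3′ UTR of 350 nt or more is annotated in 24.0% of all, 14.5% of the higher and 18.0% of the lower genes. An upstream reading frame of 35 codons or more is annotated in 16.9%, 15.2% and 14.9%. Genes with any of these features had a median log2 ratio of -0.03, and genes without one -0.06. Intronless genes went the other way, at 14.7% of all tested, 23.7% of the higher and 32.3% of the lower genes. The genes that differed also had shorter mRNA models, with medians of 1493 nt (higher) and 1276.5 nt (lower) against 1695 nt. Their median exon numbers were 3 and 2 against 5. What part length, exon number and abundance had in these shares was not tested, so the shares do not tell how NMD targets behaved.

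Splicing regulators whose own pre-mRNAs carry poison exons, a source of NMD targets, did not reach 2-fold in either direction. Of 23 such genes, 20 had a lower value in *upf3-1*, and the list median was -0.38. Of the 23, 15 were in the highest class of abundance, whose median without ribosomal protein genes was -0.20. The serine/arginine-rich splicing factors *RS40* and *RS2Z33* had 70.5 and 68.3 FPKM in *upf1-5* and 43.5 and 42.4 in *upf3-1*. *GRP7*, a glycine-rich RNA-binding protein of the clock output, had 1733 and 1076. *RS40* was at 38.2 in WT and 72.2 in the double mutant, so for this gene *upf1-5* was near the double mutant and *upf3-1* near WT. The level here is that of the whole gene, and isoforms were not analysed.

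The root list had the highest median of all lists. Of 12 markers, 8 were higher in *upf3-1* and 0 lower, with a median of 1.15, against 8.05% of all genes higher. The 6 genes of root hairs and their precursor cells on this list were all among the 8. *EXPA7* and *EXPA18*, wall-loosening expansins of root hairs, had 3.93 and 4.41 FPKM in *upf1-5* and 14.6 and 17.9 in *upf3-1*. *PRP3*, a proline-rich wall protein of root hairs, had 10.7 and 44.3, and *RHD6*, the transcription factor that starts root hair growth, 2.11 and 6.58. Values in the double mutant were like those in *upf3-1* (36.4 FPKM for *PRP3*, 10.3 for *RHD6*) and values in WT like those in *upf1-5* or lower (8.82 and 0.454). The genes that pattern the root's inner layers did not follow. Outside the rule for named genes, *SCR* had 20.2 FPKM in *upf1-5* and 11.5 in *upf3-1*, and *SHR* 9.20 and 8.67.

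Families of wall enzymes and water channels were mixed. For comparison, 8.05% of all genes were higher in *upf3-1* and 5.02% lower. Of 51 class III peroxidases, secreted enzymes that crosslink or loosen walls, 23 were higher in *upf3-1* and 1 was lower, with a median of 0.86. In the lowest class of abundance, where the background is highest, 23.1% of all genes were higher. *PER57*, a peroxidase of root epidermis, had 31.8 FPKM in *upf1-5*, 143 in *upf3-1*, 19.8 in WT and 91.0 in the double mutant. Peroxidase 35 (*AT3G49960*) had 5.40 and 34.7 in *upf1-5* and *upf3-1*, *PER15* 2.37 and 12.8, *PER8* 2.89 and 12.4, and *PER24* 1.93 and 8.21. The 1 peroxidase lower in *upf3-1* was *PER71*, named after its values were seen, with 188 FPKM in *upf1-5* and 56.03 in *upf3-1*. It was 68.3 in WT and 440 in the double mutant. Of 27 xyloglucan endotransglucosylases, which cut and rejoin wall glucans, 8 were higher and 2 lower, led by *ATXTH19* with 10.8 and 51.2 FPKM and *ATXTH17* with 9.96 and 42.9. Of 27 aquaporins, 5 were higher and 0 lower, among them the boric acid channel *NIP5;1* with 11.4 FPKM in *upf1-5* and 46.2 in *upf3-1*, although 16 of the 27 had a lower value in *upf3-1* and the family's median was -0.20. Of 24 expansins, 5 were higher and 1 lower, with a median of 0.05. Of 95 pectin modifying enzymes, 21 were higher and 6 lower, with a median of 0.06. The pectin median was -0.08 where 5 FPKM was asked of the higher library. Both families had medians near that of all genes, but shares higher in *upf3-1* above 8.05%.

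Of 25 photosynthesis genes, 0 were higher and 2 lower in *upf3-1*, a share near the 5.02% of all genes, and the list median was -0.58. Of the 25, 22 were in the highest class of abundance, whose median was -0.23. The 2 lower genes were *RBCS1B*, given above, and *LHCB1.4*, a light-harvesting protein of photosystem II, with 237 FPKM in *upf1-5* and 78.6 in *upf3-1*. All 4 genes for Rubisco small subunits had a lower value in *upf3-1*, and they summed to 34397 FPKM in *upf1-5*, 19806 in *upf3-1*, 41653 in WT and 17190 in the double mutant. The 4 *LHCB2* and *LHCB3* genes all had a higher value in *upf3-1*, with a sum of 220 FPKM in *upf1-5* and 326 in *upf3-1*. The Rubisco small subunit genes and the *LHCB2* genes hold near-identical members that may share fragments, so the value of a single one of them is uncertain. All 12 root markers summed to 1717 FPKM in *upf1-5* and 3748 in *upf3-1*, beside 1991 in WT and 1710 in the double mutant, and *PYK10* made up most of each sum. The other 11 summed to 92.7 in *upf1-5* and 190 in *upf3-1*, beside 72.3 in WT and 193 in the double mutant, so the order of WT and the double mutant depends on *PYK10*. Between both single mutants the root sum was higher and the photosynthesis sum, 48101 and 28969 FPKM, lower in *upf3-1* either way. What part the share of root tissue in each pool had in the other results was not tested. Of 19 seed markers only *OLEO4*, an oil body protein, reached the filter, with 1.58 and 0.582 FPKM. Of 7 flower and meristem markers 3 did, 2 with a higher and 1 with a lower value in *upf3-1*. Only the floral *SEP3* passed 2-fold, with 5.42 FPKM in *upf1-5* and 12.7 in *upf3-1*, beside 10.14 in WT and 1.02 in the double mutant.

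Genes described as 40S or 60S ribosomal proteins mostly had a lower value in *upf3-1*, by a small step. Of 199 such genes, 190 had a lower value in *upf3-1* and 9 a higher one, with a median of -0.54 and a sum of 76530 FPKM in *upf1-5* and 53502 in *upf3-1*. WT was at 80939 and the double mutant at 52298. The acidic ribosomal P1 gene *AT5G24510* above, far higher in *upf3-1*, is described otherwise and not counted here. Only 4 genes were 2-fold lower and 3 higher. Both subunits moved alike, with medians of -0.54 over 85 genes described as 40S and -0.53 over 114 described as 60S. The 180 genes of the family in the highest class of abundance had a median of -0.55, with 179 below 0, and the other 3623 genes of that class a median of -0.20, with 2467 below 0. Among genes that were in both the highest class of abundance and the shortest class of mRNA length, the medians were -0.55 for 138 ribosomal genes and -0.26 for 1152 others.

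**Figure D3:**
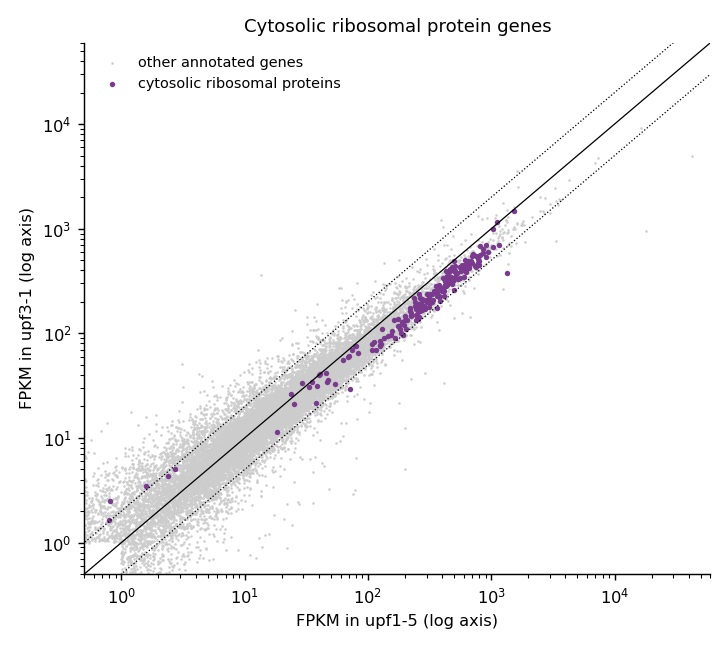
FPKM in *upf3-1* against FPKM in *upf1-5*, both on log axes from 0.5, with genes outside the axes left out. The solid line is equality and the dotted lines are 2-fold differences, and 190 of the 199 cytosolic ribosomal protein genes (purple) lie below equality, most of them inside the 2-fold lines.

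The 4 lower genes were *AT2G40205* (60S protein L41, 1335 FPKM in *upf1-5* and 377 in *upf3-1*), *RPL37A* (71.5 and 29.2), *EMB2296* (60S protein L8, 360 and 177) and *RPL36A* (191 and 95.6). The 3 higher were *UBQ6* (0.806 and 2.47), *AT5G09500* (0.788 and 1.63) and the L21 pseudogene *AT1G31355* (1.58 and 3.46), all of them at very low levels for this family, most of whose members are nearly identical pairs or triplets that may share fragments. Of the 199 genes, 48.2% have the telobox, the 8 letters AAACCCTA on either strand, in the 300 bases from 250 before to 50 after the annotated gene start, against 5.53% of all 18936 nuclear genes tested with such a window. The following 30-base stretches, from RefSeq's TAIR10.1 genome and in the sense of the gene, are those of the 4 ribosomal protein genes with a telobox and 5 FPKM or more that had the lowest ratios, shown because this motif had the largest ratio of its share in the family to its share in all windows among the 6 motifs searched, with the match in capitals.
*AT2G40205* (chr2:16792618-16792647, minus strand): tacctctacccTAGGGTTTtcaaggtatat
*RPL36A* (chr2:15775380-15775409, minus strand): ttaatatgttgTAGGGTTTtgtcttttgtc
*RPL15B* (chr4:9715808-9715837, minus strand): aacacgaactcTAGGGTTTgaagaggaata
*RPL40A* (chr2:15172052-15172081, plus strand): taatcaacacaAAACCCTAagaaatggata
*RPL15B* had 255 FPKM in *upf1-5* and 136 in *upf3-1*, and *RPL40A* 205 and 111. Ribosomal genes with and without the telobox had the same median ratio, -0.54 over 96 genes and -0.54 over 103. Outside the family, 952 genes with the motif had a median of -0.12 and 17785 without it one of -0.03. The site II motif (TGGGCC or TGGGCT, either strand), known from promoters of ribosomal and other growth genes, is in 76.4% of the ribosomal windows, 25.5% of all windows, 11.1% of those of genes higher in *upf3-1* and 17.8% of those of genes lower. The W-box that WRKY factors bind (TTGACC or TTGACT) is in 24.6% of the ribosomal windows and 32.7% of all windows. It is in 34.1% of those of genes higher in *upf3-1* and 34.8% of those of genes lower.

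Several salicylic acid defence genes were higher in *upf1-5* than in *upf3-1*. Of 16 measured genes, 8 were lower in *upf3-1* and 0 higher, with a median of -0.73, against 5.02% of all genes lower. The 8 became 4 where 5 FPKM was asked of the higher library and 5 for ratios of FPKM + 1. Of the 16, *PR2*, *NIMIN1*, *SARD1*, *PBS3*, *FMO1* and *PR1* had under 5 FPKM in both libraries. *WRKY70*, a transcription factor that promotes salicylic acid responses, had 28.0 FPKM in *upf1-5* and 6.59 in *upf3-1*, beside 4.40 in WT and 33.4 in the double mutant. *CBP60G* and *SARD1*, which turn on salicylic acid synthesis, had 5.63 and 1.93 in *upf1-5* and 1.47 and 0.509 in *upf3-1*. *NIMIN1*, a repressor bound to the receptor NPR1, had 3.38 and 0.752, and *PR2*, a glucanase, 1.19 and 0.140. For these 5 genes *upf1-5* and the double mutant were above WT and *upf3-1*, without overlap. *PR1*, the usual marker of the pathway, is named here outside the rule. It had 2.87 FPKM in *upf1-5* and 4.31 in *upf3-1*, against 65.5 in the double mutant. The isochorismate synthase gene *ICS1* and *EDS5*, also outside the rule, stayed under 2-fold. They had 11.2 and 7.37 FPKM in *upf1-5* and 8.12 and 9.14 in *upf3-1*.

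Other defence groups differed among themselves. For comparison, 5.02% of all genes were lower in *upf3-1* and 8.05% higher. Of 23 defensin-like proteins, small secreted peptides, 10 were lower and 1 higher, with a median of -0.86. Of the 23, 20 were in the shortest class of mRNA, in which 9.61% of genes were lower. *PDF1.3*, a defensin of jasmonate responses that has near-identical relatives, had 7.49 FPKM in *upf1-5* and 0.475 in *upf3-1*, and *AT2G16367* had 17.4 and 1.83. WT had 18.5 FPKM for *PDF1.3* and 3.95 for *AT2G16367*, so the order of WT and *upf1-5* was not the same within the family. Of 24 cysteine-rich receptor kinases, 6 were lower and 2 higher, with a median of -0.63, and *CRK13*, *CRK14* and *CRK6* (*AT4G23140*) had 3.82, 1.43 and 1.56 FPKM in *upf1-5* and 0.210, 0.0665 and 0.0762 in *upf3-1*. The P450 gene *CYP71A12*, which makes indole defence compounds, had 35.7 FPKM in *upf1-5* and 2.39 in *upf3-1*, beside 2.23 in WT and 276 in the double mutant. Immune receptors of the NLR class had 10 higher and 3 lower of 77 and a median of -0.08, chitinases 2 higher and 3 lower of 17, and receptor-like proteins 2 higher and 3 lower of 29. Of 15 jasmonate and ethylene genes 2 were lower, *PDF1.3* and *JAZ5* (1.11 and 0.282 FPKM), and 0 higher.

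**Figure D4:**
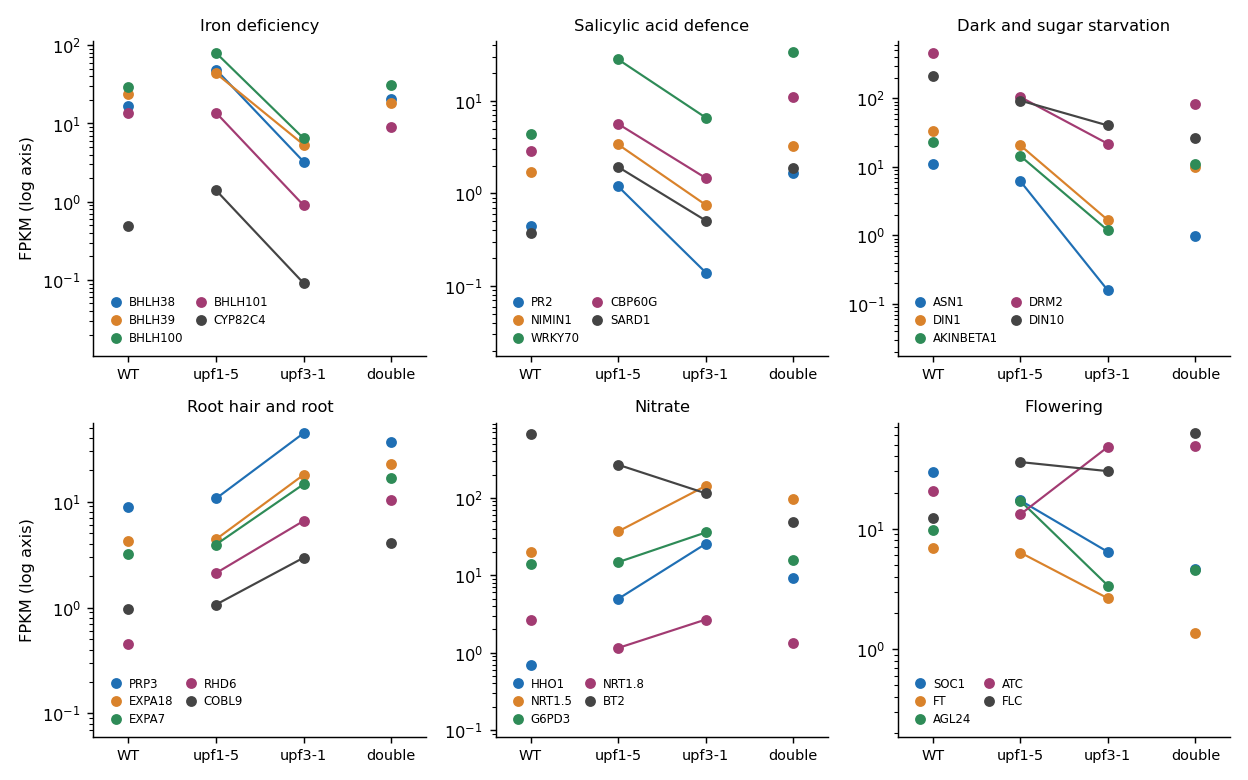
FPKM (log axis) of 5 genes from each of 6 gene lists in WT, *upf1-5*, *upf3-1* and the double mutant, with lines joining the single mutants only. Each point is 1 library; the iron, salicylic acid and starvation genes step down from *upf1-5* to *upf3-1*, the root genes step up, and *CYP82C4* has no value in the double mutant.

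Several iron deficiency genes differed by large steps. The 4 group Ib transcription factors *BHLH38*, *BHLH39*, *BHLH100* and *BHLH101*, which switch on iron uptake together with FIT, summed to 186 FPKM in *upf1-5*, 16.0 in *upf3-1*, 83.6 in WT and 78.9 in the double mutant. *BHLH38* had 48.7 in *upf1-5* and 3.25 in *upf3-1*, *BHLH39*, its neighbour on chromosome 3, 43.6 and 5.36, *BHLH100* 79.8 and 6.45, and *BHLH101* 13.7 and 0.899. For *BHLH38*, *BHLH39*, *BHLH100* and *BHLH101* alike, *upf3-1* was the lowest of the 4 libraries. For *BHLH38*, *BHLH39* and *BHLH100*, *upf1-5* was the highest, with WT at 16.7, 23.9 and 29.5 FPKM. *BHLH101* was about equal in *upf1-5* and WT, which had 13.5. The hydroxylase *CYP82C4*, induced by lack of iron, had 1.399 and 0.0909. Of the 18 measured genes on the list of iron deficiency and storage, 7 were lower in *upf3-1*, against 5.02% of all genes, and 0 higher. The list median was -0.70. The ferritins *FER1*, *FER3* and *FER4*, which store iron, had 71.6, 101 and 43.4 FPKM in *upf1-5*. In *upf3-1* they had 70.2, 72.5 and 40.6. They are named outside the rule. *FIT*, the partner of the group Ib factors and named outside the rule, was not among the 7, with 6.90 FPKM in *upf1-5* and 12.3 in *upf3-1*.

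CC-type glutaredoxins, a plant class of small redox proteins of which several respond to nitrogen supply, had the lowest median, -1.15, of the lists with more than 1 measured gene. Of 18 measured genes, 10 were lower in *upf3-1* and 0 higher, and 5 were lower where 5 FPKM was asked of the higher library. All 18 were in the shortest class of mRNA, in which 9.61% of genes were lower. *GRXC11* and *GRX480* had 2.59 and 2.68 FPKM in *upf1-5* and 0.593 and 0.614 in *upf3-1*, *GRXS8* 4.96 and 1.39, *ROXY2* 7.90 and 2.67, and *GRXS1* 6.80 and 2.37. Of the tandem cluster *GRXS3*, *GRXS4*, *GRXS5*, *GRXS7* and *GRXS8* on chromosome 4, whose near-identical genes may share fragments, 4 of 5 were 2-fold lower. The cluster summed to 41.9 FPKM in *upf1-5* and 18.6 in *upf3-1*, beside 135 in WT and 6.12 in the double mutant. From high to low, the order of the sums was WT, *upf1-5*, *upf3-1* and double mutant.

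Nitrate genes were split. Of 16 genes, 6 were higher in *upf3-1* and 1 was lower, with a median of 0.08. The shares over all genes were 8.05% higher and 5.02% lower. *HHO1*, a repressor induced by nitrate, had 4.95 FPKM in *upf1-5* and 25.5 in *upf3-1*, beside 0.693 in WT. The transporters *NRT1.5*, which loads nitrate into the xylem, and *NRT1.8*, which unloads it, had 36.9 and 1.15 FPKM in *upf1-5* and 143 and 2.68 in *upf3-1*, and the plastid dehydrogenase *G6PD3* 14.8 and 35.7. *BT2*, a repressor of nitrate use, had 268 and 115, against 665 in WT and 49.3 in the double mutant. The nitrate reductases *NIA1* and *NIA2*, named outside the rule, stayed within 2-fold, with 113 and 336 FPKM in *upf1-5* and 68.4 and 189 in *upf3-1*.

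Of 16 genes induced by darkness or lack of sugar, 13 had a lower value in *upf3-1*. By 2-fold, 7 were lower and 0 higher, with a median of -0.82, against 5.02% of all genes lower. *ASN1* (chr3:17437840-17441431), an asparagine synthetase and the usual marker of sugar starvation, had 6.20 FPKM in *upf1-5*, 0.158 in *upf3-1*, 11.1 in WT and 0.969 in the double mutant. *DIN1*, a senescence protein, had 20.7 and 1.68 in *upf1-5* and *upf3-1*, *AKINBETA1*, a subunit of the energy sensor kinase SnRK1, 14.5 and 1.18, *DRM2*, a dormancy protein, 105 and 21.8, and *DIN10*, a raffinose synthase, 93.0 and 40.3. WT was the highest of the 4 libraries for *ASN1*, *DIN1*, *AKINBETA1*, *DRM2* and *DIN10*. Flavonoid genes went the other way, with 3 of 18 higher, against 8.05% of all genes, 0 lower and a median of 0.45. These were *GSTF12*, which carries anthocyanin to the vacuole (13.2 and 41.9 FPKM), the activator of flavonol synthesis *MYB12* (4.85 and 14.6), and *F3primeH*, the flavonoid 3′-hydroxylase (6.41 and 12.8).

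Among flowering time genes, 8 of 22 were lower in *upf3-1* and 1 was higher, with a median of -0.30. Of all genes, 5.02% were lower and 8.05% higher. The promoters of flowering *SOC1* and *FT* had 17.2 and 6.35 FPKM in *upf1-5* and 6.42 and 2.64 in *upf3-1*, beside 29.5 and 6.95 in WT and 4.67 and 1.36 in the double mutant. *AGL24*, another promoter, had 17.1 and 3.37, *SPL4*, a promoter of the age pathway, 4.05 and 0.910, and the repressors *TFL1* and *MAF5* 1.63 and 7.64 in *upf1-5* and 0.282 and 2.42 in *upf3-1*. The gene higher in *upf3-1* was *ATC*, a relative of *TFL1* that represses flowering, with 13.2 FPKM in *upf1-5*, 47.9 in *upf3-1*, 20.7 in WT and 48.9 in the double mutant. The repressor *FLC* and its relative *MAF3* did not separate the single mutants, with 35.9 and 50.7 FPKM in *upf1-5* and 30.1 and 48.2 in *upf3-1*, against 12.4 and 17.1 in WT. *NF-YA5*, a subunit of a CCAAT-binding factor, and *TAF14*, a chromatin-linked YEATS protein, had 2.71 and 3.64 in *upf1-5* and 4.34 and 5.67 in *upf3-1*, under 2-fold.

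Clock genes mostly lay close, with 2 of 17 higher, 1 lower and a median of 0.04, against 8.05% of all genes higher and 5.02% lower. The morning genes *CCA1* and *LHY*, both near their daily low at this time, had 0.522 and 3.14 FPKM in *upf1-5* and 2.85 and 8.44 in *upf3-1*. *FKF1*, a blue light receptor of the evening, had 8.07 and 3.70. *LNK2*, a morning activator, had 3.75 and 6.53, under 2-fold. With 1 harvest time, level and phase cannot be told apart. Of 11 cold response genes 3 were lower, against 5.02% of all genes, and 0 higher, while 5 had a higher value in *upf3-1* and the median of -0.04 was that of all genes. Among the 3 were *COR15A* and *COR15B*, chloroplast proteins that protect membranes in frost, with 42.1 and 63.3 FPKM in *upf1-5* and 5.72 and 10.5 in *upf3-1*. *ZAT10*, a stress repressor, had 7.35 and 3.37. Glucosinolate synthesis genes showed 1 of 20 higher, *MAM3*, which lengthens the side chain, with 13.1 and 37.9 FPKM, and 0 lower.

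The levels of WT and the double mutant, which have no part in the contrast, were set beside those of the genes that differed. Distances were taken on log2(FPKM + 1). Of 1451 genes higher in *upf3-1* with a value in all 4 libraries, WT lay nearer to *upf1-5* for 90.1%, against 69.0% over all 18852 tested genes with 4 values. The double mutant lay nearer to *upf3-1* for 64.1% of them, against 56.04% over all. Of 919 genes lower in *upf3-1*, WT lay nearer to *upf1-5* for 66.7% and the double mutant for 57.7%, against 69.0% and 42.9% over all. The median FPKM of the genes higher in *upf3-1* was 2.23 in *upf1-5* and 6.51 in *upf3-1*, with WT at 1.89 and the double mutant at 4.77. That of the genes lower was 6.90 in *upf1-5* and 2.40 in *upf3-1*, with WT at 5.59 and the double mutant at 5.92.

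**Figure D5:**
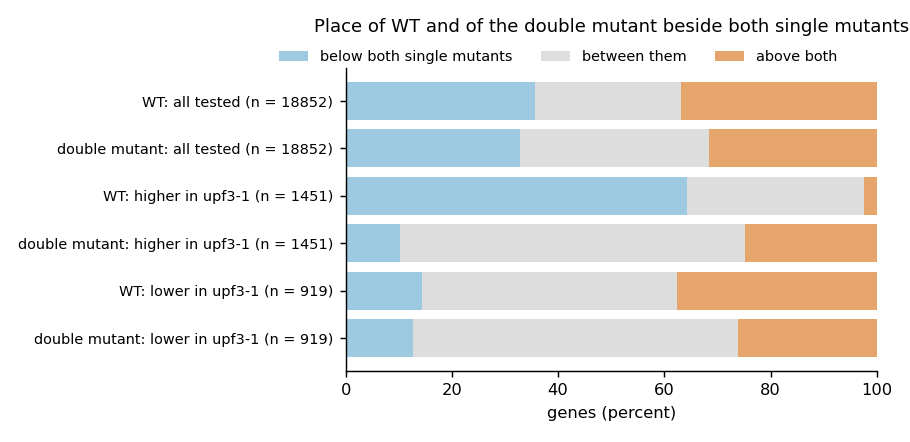
Share of genes (percent) whose FPKM in WT or in the double mutant was below both single mutants, between them, or above both, for all tested genes with 4 values and for those 2-fold higher or lower in *upf3-1*. Of the genes higher in *upf3-1*, WT was below both single mutants for 64.2%, and the double mutant lay between them for 64.9%. Over all tested genes with 4 values these shares were 35.6% and 35.7%. The genes that differ were picked by a wide gap between the single mutants, so more values fall between them by selection.

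In the plot of these shares, WT was below both single mutants for 64.2% of the genes higher in *upf3-1* and above both for 2.48%. Over all tested genes with 4 values, WT was below both for 35.6%, between them for 27.6% and above both for 36.8%. For the genes lower in *upf3-1*, WT lay between the single mutants for 48.0% and above both for 37.5%. The double mutant lay between them for 61.3%, against 35.7% over all. Genes picked by a gap of 2-fold or more leave more room between the single mutants, so the shares between them are raised by selection. The 5 chromosomes held like shares, from 7.14% to 8.61% of tested genes higher in *upf3-1* and from 4.19% to 5.45% lower.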

How the data were processed

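RNA from pooled seedlings of 4 genotypes was sequenced, with 1 library for each. The authors removed adapters, mapped the reads to TAIR10 with TopHat 2.0.6 and Bowtie 2, assembled transcripts with Cufflinks 2.2.1 and compared all pairs of libraries with Cuffdiff 2.2.1. The deposited table gives for each locus and pair the FPKM summed over both libraries, as scaled by the authors, to 2 decimals. The deposited fold is a ratio of the larger to the smaller FPKM, and a separate column says which library was larger. The deposited q-values are the authors' own comparison and were not used. 0 columns of per-sample values were left unused.

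For the pair *upf1-5* and *upf3-1*, the lower FPKM was the sum divided by the fold plus 1, and the higher was the rest. WT and double mutant values were averaged over their pairs, weighted by rounding error, and estimates of 1 FPKM or more differed by at most 0.745% between pairs. One library name in the table is on no label and was taken as the double mutant because the other 3 names are. The recovery was tested on simulated data. Pairs with a missing value have no row: of 1110 annotated genes without one, 106 had 1 FPKM or more in *upf1-5* and no value in *upf3-1*, and 102 the reverse. Depth is unknown, because read totals were not analysed here, and no precision can be given for a single value.

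Annotated genes with 1 FPKM or more in at least 1 library were counted as different at 2-fold. Lists by gene ID (18) and families by description (31) are given by counts and medians beside all genes. The members and lists were chosen with earlier results of these data known. Motifs and classes of length were added later. Named genes are the mutated and reference genes, the 10 largest ratios in each direction at 5 FPKM or more, the 5 highest FPKM in each direction, up to 5 members of a list or family with the largest ratio, and *FLC*, *MAF3*, *SOC1*, *FT*, *NF-YA5* and *TAF14*. Gene models, positions and windows are from RefSeq's TAIR10.1, where 18937 of the 19014 genes matched by locus. The table gives no strand, and genes that overlap, on the same or on opposite strands, were not separated. Alternatives were other filters, folds, pseudocounts and scalings, all loci, values averaged over pairs, and missing values set to 0. Scripts ran in Python 3.11.15, with pandas 2.3.3 and NumPy 2.4.6 for tables, matplotlib 3.10.9 for plots and SciPy 1.17.1 for binomial limits.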

Additional observations from a re-analysis of the deposited data

How the results depend on the processing

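Every fold here compares 1 library with 1 library, so neither replicate nor sampling error is known. Counts of genes higher and lower in *upf3-1* were within 1.5 times the reported 1530 and 955 under 9 other settings and, in a setting chosen after seeing the data, with nuclear genes alone. They were 850 and 558 with 5 FPKM or more in at least 1 library, 2930 and 2873 at 1.5-fold, 360 and 204 at 4-fold, and 971 and 576 for ratios of FPKM + 1. Over genes with an mRNA model of 1500 nt or more, chosen after seeing the data, they were 729 and 331. The genes higher in *upf3-1* were 61.6% of all that differed, 68.4% with *upf3-1* rescaled to the 75th percentile of *upf1-5* and 50.5% at 1.5-fold. That rescaling moved log2 ratios by 0.08. The share of genes higher in *upf3-1* with the double mutant nearer to *upf1-5* was 35.9%, 33.2% on log2(FPKM + 0.1) and 32.3% with all libraries rescaled. The salicylic acid list had 5 genes lower for ratios of FPKM + 1 and 4 genes at 5 FPKM, against 8, and CC-type glutaredoxins 5 at 5 FPKM, against 10. The median of the cold list and that of NLR receptors turned to 0.03 and 0.05 under the rescaling. Of the ratios of 292 named genes under 3 of these settings, 0 turned to the other direction from past 2-fold, 20 crossed the 2-fold limit and 856 did neither. No paired analysis was possible because each genotype has 1 library.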

Other observations

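Several transcription factor families had more members higher than lower in *upf3-1*. Of 76 MYB factors, 23 were higher and 2 lower, with a median log2 ratio of 0.43, against -0.04 over all genes. *MYB36*, which directs the Casparian strip of the root endodermis, had 1.66 FPKM in *upf1-5* and 7.43 in *upf3-1*, beside 1.55 in WT and 7.65 in the double mutant. *MYB112*, *ATMYB54*, *AtMYB40* and *MYB39*, the last known from root suberin, had 0.318, 2.80, 1.22 and 0.329 FPKM in *upf1-5* and 2.68, 12.6, 5.69 and 1.32 in *upf3-1*. Of 57 NAC factors 17 were higher and 4 lower, with a median of 0.29, from *anac074* (0.538 and 7.27 FPKM) to *VND5*, a regulator of xylem vessels (2.26 and 0.400). WRKY factors were more even, with 10 of 58 higher and 6 lower: *WRKY43* had 1.07 and 8.09 FPKM, and *WRKY28* 3.45 and 0.765. ERF factors were split, with 12 of 83 higher and 13 lower. Over all genes, 8.05% were higher and 5.02% lower. Of 134 cytochrome P450 genes 38 were higher and 11 lower, led by *CYP709B2* (0.128 and 3.90 FPKM) and *CYP705A1* (0.466 and 4.80). Median FPKM in *upf1-5* was 4.70 for MYB, 5.71 for NAC, 6.91 for WRKY and 7.35 for P450 genes, against 14.7 over all genes. In the 2 lowest classes of abundance 23.1% and 8.13% of all genes were higher, and 13.6% and 3.84% were lower.

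Chloroplast genes differed in level as well. Of 25 chloroplast genes, 11 were lower in *upf3-1* and 1 higher, with a median of -0.58, and *PSBM* took most of their signal. The shares over all genes were 5.02% lower and 8.05% higher. Mitochondrial genes were balanced, with 2 of 12 lower, 2 higher and a median of -0.22. *PSAJ*, a subunit of photosystem I, had 1375 FPKM in *upf1-5* and 460 in *upf3-1*, beside 3192 in WT. Organelle transcripts mostly lack a poly(A) tail, and which kit was used for these libraries is given differently by the sources. Nuclear genes for histones, most of whose mRNAs peak in dividing cells, had 3 of 40 lower, near the 5.02% of all genes, and 1 higher, with a median of -0.53. Of the 40, 30 were in the highest class of abundance and 32 in the shortest of mRNA, whose medians were -0.23 and -0.16. Cyclins, regulators of the cell cycle, had 6 of 69 higher and 3 lower, with a median of 0.14. The near-identical H3 genes *AT5G10400* and *AT5G65360* had 195 and 219 FPKM in *upf1-5* and 85.5 and 96.3 in *upf3-1*. Proteasome subunits had a median of -0.19 with 0 of 48 past 2-fold in either direction.

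A total of 4 genes had a value below 0.01 FPKM in 1 of the 2 libraries, 2 in each direction, with *BLT* and *PCMP-E40* near 0 in *upf1-5*, and *GIK* and *AT3G22970* near 0 in *upf3-1*. In the other library they had 6.45, 2.05, 1.61 and 1.18 FPKM.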
